A study of Mus musculus with 17 samples.

Results

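The 8 genes described here encode the enzymes that place, copy and remove methyl groups on cytosine in mouse DNA, with 2 proteins that act directly beside them: Dnmt1, Dnmt3a, Dnmt3b, Uhrf1, Tet1, Tet2, Tet3 and Tdg. They were taken by name, and they are 8 of the 21938 protein-coding genes in the GENCODE vM21 annotation of mm10, the mouse assembly GRCm38. For each gene, islands of the histone variant H3.3 were collected over the gene body with 5 kb on each side, here called the window. An island is a stretch of the genome in which a peak caller found more immunoprecipitated reads than its background allows. Several measures were compared between libraries, namely the share of the window under islands (covered share), the length of the longest island touching the window, and the reads per kb of those islands.

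The data are 4 H3.3 ChIP-seq libraries from microdissected lenses of newborn CD1 mice, 2 from lens epithelium and 2 from lens fibers, with no genetic change or treatment in either group. The titles give postnatal day 1 and the protocol day 0.5. Each library came from pooled lenses, 150 per sample by the labels and 200 lenses by the methods, so that animals within a library cannot be separated, and immunoprecipitation used 12 µg of chromatin with an antibody against H3.3. In such pools, more cells carrying H3.3 at a site and more H3.3 per cell cannot be told apart. The labels call the libraries biological replicates. Neither the bisulfite libraries of the series nor the input library were analysed here, so that no methylation level stands beside the islands.

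The lens is built from an anterior layer of dividing epithelial cells and from fiber cells, which leave the cell cycle, elongate and fill with crystallins. H3.3 is a form of histone H3 that is put into chromatin outside DNA replication and is found at active promoters, at enhancers and along transcribed genes. Methylation of cytosine in CpG dinucleotides is placed by Dnmt3a and Dnmt3b and copied onto new DNA strands by Dnmt1, which Uhrf1 recruits. The Tet enzymes oxidize methylated cytosine, and Tdg cuts oxidized bases out so that repair can restore cytosine.

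The epithelium libraries held fewer islands than the fiber libraries, 10389 and 14434 against 27059 and 35940. The reads in islands were 1331369 and 1430373 in epithelium and 5041885 and 5359085 in fibers, and the islands covered 45.4 to 48.9 Mb in epithelium and 178 to 188 Mb in fibers. Sequencing depth is unknown, so that a window without an island has no called island and nothing more. All 10 fiber markers, among them Lim2 and Mip, had a higher covered share in both fiber libraries than in both epithelium libraries. Of the 6 epithelial markers 5 were also higher in fibers, and Gja1 overlapped, so that epithelial marker genes did not mark the epithelium libraries. Foxe3, which defines the lens epithelium, had no island in epithelium replicate 1 and was covered by 60.7% in replicate 2 and by 88.5% and 86.6% in fibers. Of 16 markers of cornea, retina, pigmented tissue, vessels and blood, 3 and 4 had an island in epithelium and 6 and 9 in fibers, and their covered shares summed to 62.2 and 21.7 points in epithelium and 90.8 and 124 points in fibers. Krt12, Krt14, Crx, Tyr, Kdr and Ptprc had no island in any library, and the part of the other markers' tissues in the results was not tested.

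Tet3 and Dnmt3a were the genes most widely covered by H3.3 islands in fibers, at 89.1% ± 1.19 and 61.4% ± 5.87 of their windows (SD, n = 2). Both already had islands in each epithelium library, over 20.2% ± 2.76 and 16.7% ± 6.21 (SD, n = 2). Dnmt1, Tet2 and Tdg had islands in both fiber libraries and none in epithelium. In 7 of the 8 genes the covered share was higher in both fiber libraries than in both epithelium libraries, and Uhrf1 overlapped. This was so for 45.0% of all protein-coding genes and for 69.8% of the 14147 genes that had an island in at least 1 library. The 8 genes as a set therefore lay near the second background, with a median difference of 15.9 percentage points against 16.0 for genes with an island and 4.72 for all genes. No member was higher in both epithelium libraries, and 0.670% of all genes were. With 2 libraries a compartment, the exact two-sided permutation test cannot give a p below 0.33, which is its value for each of the 7 genes.

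**Figure D1:**
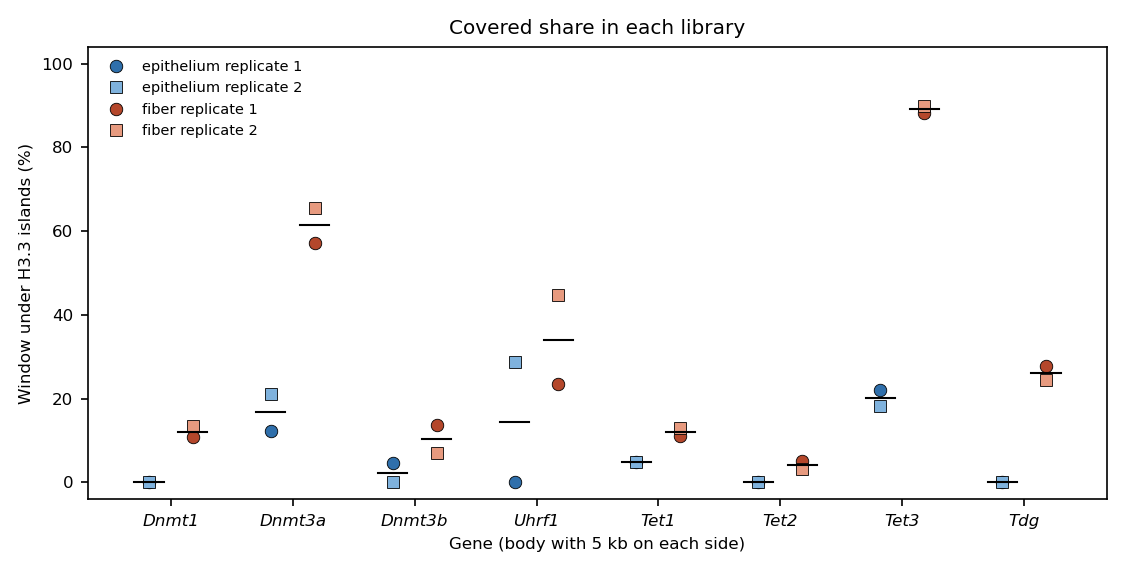
Percent of each gene's window (gene body with 5 kb on each side) under H3.3 islands, with a point for each of the 4 libraries and a bar at the mean of each compartment (n = 2). Tet3 and Dnmt3a stand highest in fibers, Dnmt1, Tet2 and Tdg are at 0 in both epithelium libraries, and the compartments overlap only for Uhrf1.

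The starts of these genes differ in CpG content and in island cover, and a few are shown for that reason. RefSeq promoter windows of 300 bases (250 before and 50 after the start, GRCm38.p6) were found for all 8 genes, 13 in total. All are printed 5′ to 3′ on the strand of the gene, with each CG dinucleotide, which reads the same on both strands, in capitals. The internal start of Tet3 (chr6:83441629-83441928, minus strand) was under an island in all 4 libraries, and the CpG-rich main start of Dnmt3a (chr12:3806730-3807029, plus strand) in none. A second Dnmt3a window, with 47 CG, and the window of the upstream Dnmt1 start, with 2, also had no island in any library. The internal start of Dnmt3a (chr12:3891494-3891793, plus strand), Tet2 (chr3:133544341-133544640, minus strand), Dnmt1 (chr9:20952574-20952873, minus strand) and Tdg (chr10:82629588-82629887, plus strand) were under islands in both fiber libraries and in neither epithelium library. The Dnmt1 window shown is that of a start 356 bp after the principal start.
Tet3 internal start: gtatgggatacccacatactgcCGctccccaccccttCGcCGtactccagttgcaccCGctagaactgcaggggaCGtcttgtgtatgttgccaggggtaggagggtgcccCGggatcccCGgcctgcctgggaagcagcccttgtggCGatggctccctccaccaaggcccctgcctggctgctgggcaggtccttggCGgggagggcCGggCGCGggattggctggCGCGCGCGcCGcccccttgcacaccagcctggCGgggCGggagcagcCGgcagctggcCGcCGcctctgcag
Dnmt3a main start: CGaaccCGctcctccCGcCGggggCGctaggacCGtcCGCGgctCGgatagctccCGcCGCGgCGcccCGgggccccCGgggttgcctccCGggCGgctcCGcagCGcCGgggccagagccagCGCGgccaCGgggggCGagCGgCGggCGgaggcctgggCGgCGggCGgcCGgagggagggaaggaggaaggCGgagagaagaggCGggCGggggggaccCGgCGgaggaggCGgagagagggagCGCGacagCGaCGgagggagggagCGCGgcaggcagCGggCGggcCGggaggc
Dnmt3a internal start: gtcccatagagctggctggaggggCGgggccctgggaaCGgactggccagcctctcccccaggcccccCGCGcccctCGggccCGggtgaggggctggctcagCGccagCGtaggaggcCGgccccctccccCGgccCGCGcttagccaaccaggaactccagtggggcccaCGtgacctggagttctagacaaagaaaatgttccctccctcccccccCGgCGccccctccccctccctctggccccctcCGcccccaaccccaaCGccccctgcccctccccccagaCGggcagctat
Tet2 start: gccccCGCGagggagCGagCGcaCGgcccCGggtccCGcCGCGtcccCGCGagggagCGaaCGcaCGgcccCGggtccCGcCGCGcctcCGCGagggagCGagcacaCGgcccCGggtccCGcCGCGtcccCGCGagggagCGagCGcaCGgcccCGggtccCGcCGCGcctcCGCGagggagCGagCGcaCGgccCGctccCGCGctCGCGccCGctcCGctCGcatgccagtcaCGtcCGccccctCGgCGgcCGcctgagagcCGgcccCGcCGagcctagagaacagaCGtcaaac
Dnmt1 start: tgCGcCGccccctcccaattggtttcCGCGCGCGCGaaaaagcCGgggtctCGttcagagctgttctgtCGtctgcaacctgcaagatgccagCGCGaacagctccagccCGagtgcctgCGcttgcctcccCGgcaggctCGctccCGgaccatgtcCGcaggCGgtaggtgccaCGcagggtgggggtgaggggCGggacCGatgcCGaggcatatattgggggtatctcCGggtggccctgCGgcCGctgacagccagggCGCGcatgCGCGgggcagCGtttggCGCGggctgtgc
Tdg start: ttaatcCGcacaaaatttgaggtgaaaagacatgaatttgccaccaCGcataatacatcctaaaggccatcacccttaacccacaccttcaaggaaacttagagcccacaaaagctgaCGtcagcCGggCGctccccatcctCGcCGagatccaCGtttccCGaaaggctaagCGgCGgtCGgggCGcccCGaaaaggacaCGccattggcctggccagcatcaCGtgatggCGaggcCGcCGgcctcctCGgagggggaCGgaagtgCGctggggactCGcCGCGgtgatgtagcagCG

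These windows hold 22, 46, 18, 57, 33 and 26 CG dinucleotides in the order printed. The window at the principal start of Dnmt1, not printed, held 12 and was likewise under islands in both fiber libraries and in neither epithelium library. The median over the 13 promoters of the 8 genes was 26, against 7 over 32851 promoters, of which 94.6% held at least 1 CG. The Tet2 window held more CG than 99.8% of all promoters, and the main Dnmt3a window more than 98.4%. The densest window, of Tet2, was under fiber islands, whereas that of the main Dnmt3a start was under none. Whether CpG content and cover go together was not tested. Of the 13 windows, 1 in each epithelium library had any base under an island, as had 9 and 8 in fiber replicates 1 and 2, whereas of all promoters 11.2% and 13.4% did so in epithelium and 31.9% and 36.3% in fibers. The internal Tet3 window was the 1 member window with an island in all 4 libraries, which 5.71% of all promoters had.

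Dnmt3a, a de novo methyltransferase, lies on chromosome 12 from 3806007 to 3914443 on the plus strand (ENSMUSG00000020661.15). Its covered share was 12.3% and 21.1% in epithelium (replicate 1 first, here and for all pairs of values) and 57.2% and 65.6% in fibers. The difference of 44.7 percentage points was several times the spread between replicates, and 1954 of the 21938 genes had a larger one. In epithelium 4 and 8 islands of at most 4600 bp lay within introns, apart from 1 that included exon 3. Fibers had 11 islands in each library, with longest islands of 17000 and 19400 bp that held 555 and 613 reads. These long islands ran from 74.37 to 91.37 kb and from 71.77 to 91.17 kb after the principal start and spanned exons 7 to 12, together with the internal start at 84.7 kb. Dnmt3a is known to make a shorter protein from a start inside the gene. No island covered the principal start in any library, and the first fiber island downstream began 0.97 kb after it in both fiber libraries. All 4 libraries shared 3 stretches, at 29.37 to 30.77 kb and 33.37 to 36.77 kb in intron 2 and at 80.37 to 83.37 kb in intron 6, the last of them inside the long fiber island. Together these made up 7.80 kb, whereas 36.6 kb was under islands of both fiber libraries and of neither epithelium library.

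Dnmt3b, the other de novo methyltransferase, lies on chromosome 2 from 153649450 to 153687730 on the plus strand (ENSMUSG00000027478.15). It had 1 island in 3 of the 4 libraries, and its covered share was 4.56% and 0% in epithelium and 13.7% and 7.04% in fibers. The islands of the compartments did not lie at the same place. That of epithelium replicate 1 (2200 bp, 67 reads) lay at exons 14 to 16, from 24.75 to 26.95 kb after the start, and no fiber island touched it. The fiber islands of 6600 bp (164 reads) and 3400 bp (74 reads) lay around exon 1 and in intron 1, and that of fiber replicate 1 alone covered the start. Among the islands at members with values in both compartments, those of Dnmt3b were the ones less dense in fibers, at 24.8 and 21.8 reads per kb against 30.5 in epithelium replicate 1. The comparison rests on 1 epithelium library, and without epithelium replicate 1 the gene has no epithelium island. In the window 6.84% of stretches of 75 nt, the read length, occur more than once in the genome, where reads cannot be placed on 1 copy.

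Dnmt1, the maintenance methyltransferase, lies on chromosome 9 from 20907209 to 20959888 on the minus strand (ENSMUSG00000004099.16). Its covered share was 0% in both epithelium libraries and 10.8% and 13.4% in fibers. Both fiber libraries had the same pair of places. The island over the principal start ran from -0.62 to 2.38 kb relative to it in each, with 89 and 109 reads. A second island lay in intron 1, from 6.38 to 10.18 kb in replicate 1, and reached exon 4 at 11.58 kb in replicate 2. The annotated start 6.9 kb upstream, with only 2 CG in its RefSeq window, had no island in any library. Past 11.58 kb no library had an island, so that most of the gene body was bare.

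Uhrf1 binds DNA methylated on only the parental strand and brings Dnmt1 to it. The gene lies on chromosome 17 from 56303321 to 56323486 on the plus strand (ENSMUSG00000001228.14). It was the 1 member whose compartments overlapped in covered share, at 0% and 28.8% in epithelium and 23.5% and 44.7% in fibers (exact permutation p = 0.67). Islands over the start were called in fibers alone. Both fiber libraries had an island over the principal start, of 6400 bp with 173 reads in replicate 1 and of 2000 bp with 63 reads in replicate 2. Epithelium replicate 2 had none there, and its 2 islands lay at exons 8 to 13 and beyond the end of the gene. The first overlaps an island of fiber replicate 2 at exons 12 to 15, of 4200 bp with 93 reads, and of the 8686 bp under epithelium islands 2000 lay under no fiber island. The second, from 20.48 to 26.68 kb, and the longest island of fiber replicate 2, from 20.48 to 35.88 kb, reach into the neighbouring Kdm4b, a histone demethylase gene, so that the island of 15400 bp is not that of Uhrf1 alone. Epithelium replicate 1 had no island in the window. Without epithelium replicate 2, or without fiber replicate 1, the shares of Uhrf1 did not overlap and 8 of the 8 genes were higher in fibers. The same held for the gene body alone, where the shares were 0% and 19.8% in epithelium and 22.2% and 37.1% in fibers.

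**Figure D2:**
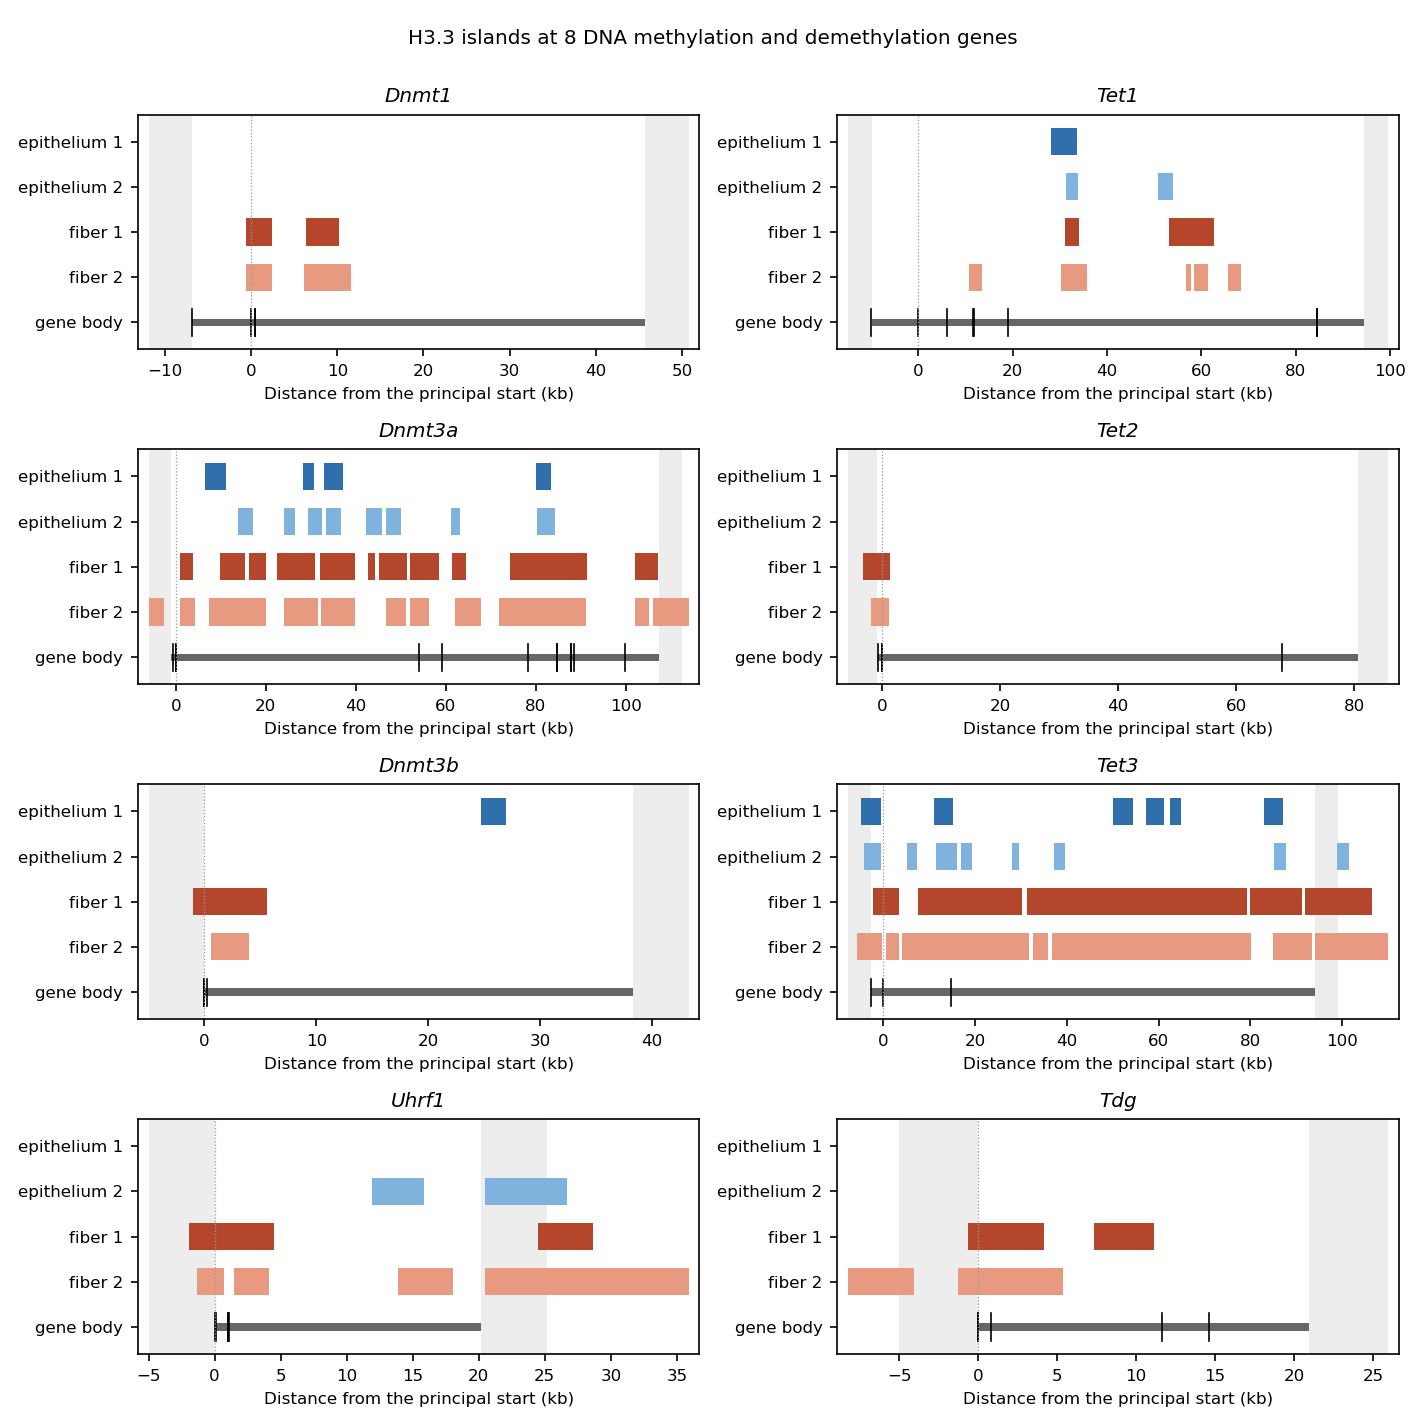
H3.3 islands at the 8 genes in the 4 libraries (colored blocks), drawn to scale against the distance in kb from the start of the principal transcript and in the direction of transcription. The gray bar is the gene body with vertical ticks at annotated coding starts, and gray shading marks the 5 kb on each side. In fibers Dnmt1, Tet2 and Tdg have an island over the start, Dnmt1 and Tdg also have a second island away from it, islands of Tet3 span most of the gene, and Tet1 has none at its principal start.

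Tet3 carried the broadest H3.3 cover of the 8 genes. It lies on chromosome 6 from 83362373 to 83459084 on the minus strand (ENSMUSG00000034832.15). The covered share was 22.1% and 18.2% in epithelium and 88.3% and 90.0% in fibers, a difference of 69 percentage points that 294 of 21938 genes exceeded. The number of islands did not rise with it, at 6 and 8 in epithelium and 5 and 7 in fibers. The islands were longer instead, with longest islands of 4400 bp in both epithelium libraries and of 47800 and 43400 bp in fibers. The latter held 1382 and 1263 reads and ran over exons 4 to 6 with the introns around them, and over exon 7 as well in replicate 2. In all, the islands touching the window held 657 and 674 reads in epithelium and 3128 and 3299 in fibers. The share was 20.4% ± 2.63 in epithelium and 91.7% ± 0.836 in fibers (SD, n = 2) when the gene body alone was counted, so that the flank shared with Bola3 did not carry the difference.

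At Tet3 every base under an epithelium island was also under an island of at least 1 fiber library. The fiber islands covered 88.3% and 90.0% of the window, so that this overlap was largely given by their extent. All 4 libraries shared 3 stretches, from -2.21 to -0.41 kb, from 11.59 to 15.19 kb and from 85.19 to 87.19 kb relative to the principal start. The second of these lies over exon 3 and holds the internal start shown above, 14.7 kb downstream, which is the only 1 of 46 annotated coding starts of the 8 genes under an island in all 4 libraries. The principal start was covered in fiber replicate 1 alone, and the start 2.7 kb upstream in both epithelium libraries and fiber replicate 2. In the window 0.421% of stretches of 75 nt recur in the genome, the lowest of the 8 genes.

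Tet1, the founding member of the Tet family, lies on chromosome 10 from 62804570 to 62908996 on the minus strand (ENSMUSG00000047146.17). The covered share was 4.89% in both epithelium libraries and 11.0% and 12.9% in fibers. All 4 libraries shared 1 stretch of 2.40 kb in intron 2, from 31.32 to 33.72 kb after the start. Other islands lay in the gene body, among them 1 of 9600 bp with 272 reads around exon 4 in fiber replicate 1. No island lay at the principal start in any library, and that of fiber replicate 2 from 10.72 to 13.52 kb covered starts 11.6 and 11.8 kb downstream. Longest islands overlapped between compartments, at 5600 and 3000 bp in epithelium and 9600 and 5400 bp in fibers (exact permutation p = 0.67). The overlap rests on 1 library of either compartment, as without epithelium replicate 1, or without fiber replicate 2, the longest island was longer in fibers for all 8 genes.

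Tet2 lies on chromosome 3 from 133463679 to 133545139 on the minus strand (ENSMUSG00000040943.12). It had the smallest cover of the 8 genes, at 0% in both epithelium libraries and 5.03% and 3.28% in fibers. Each fiber library had 1 island, of 4600 bp with 125 reads and of 3000 bp with 81 reads, and both lay over the CpG-dense start shown above, and over the start of Gm42567, an antisense transcript beside it. From 1.39 kb after the start to the end of the gene no library had an island. Tet2 and Tet3 thus differed in fibers in where H3.3 was called, at the start alone and along the whole gene.

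Tdg, the glycosylase that removes oxidized methylcytosine, lies on chromosome 10 from 82629828 to 82650799 on the plus strand (ENSMUSG00000034674.18). Its covered share was 0% in both epithelium libraries and 27.8% and 24.5% in fibers. Islands of 4800 bp (139 reads) and 6600 bp (198 reads) lay over the start in the fiber libraries. The second island of each was not shared, as it lay at exon 2 in replicate 1 and upstream, from -8.26 to -4.06 kb, in replicate 2. Of the stretches of 75 nt in the window 7.08% recur in the genome, the highest share of the 8 genes.

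**Figure D3:**
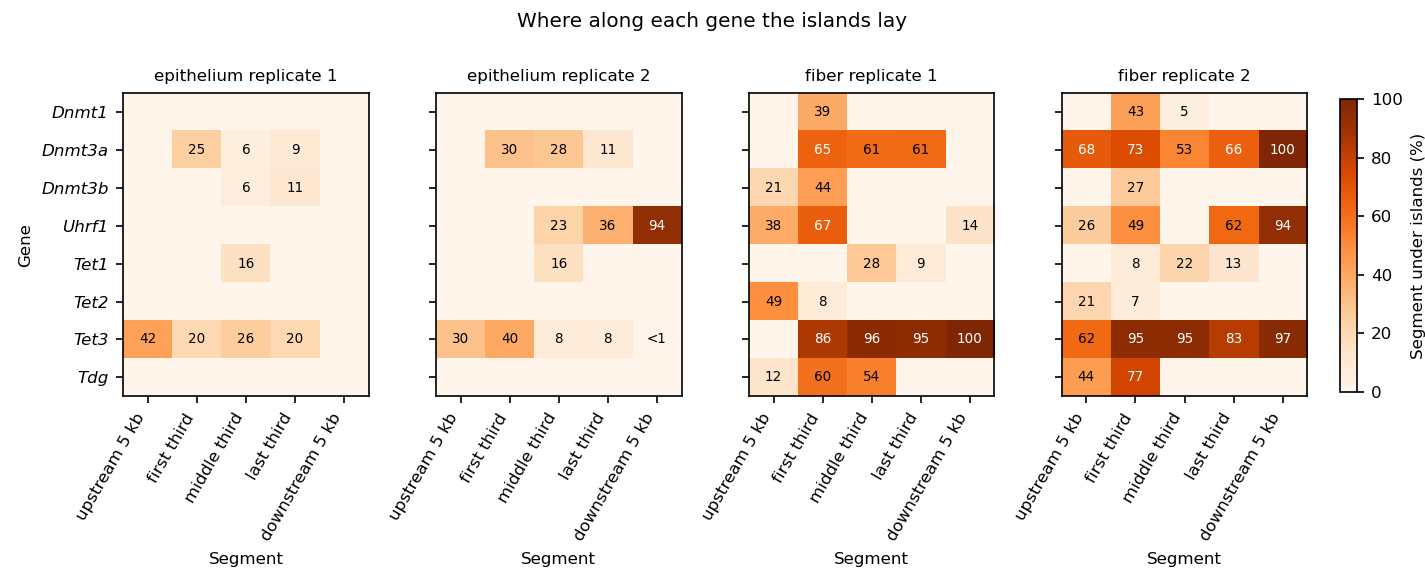
Percent of each segment under H3.3 islands for the 8 genes (vertical axis) in each library, where segments are the 5 kb upstream, the first, middle and last of 3 equal parts of the gene body and the 5 kb downstream. Empty cells are 0. In fibers Tet3 was covered from 83.2% to 96.3% in each of the 3 parts of the body, whereas the cover of Dnmt1, Dnmt3b, Tet2 and Tdg was greatest upstream or in the first of these parts.

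Ordered by the fiber mean of covered share, the genes ran Tet3, Dnmt3a, Uhrf1, Tdg, Dnmt1, Tet1, Dnmt3b and Tet2. Tet3 stood above Dnmt3a in both fiber libraries, and Dnmt3a above the rest. The value of Uhrf1, 34.1% ± 15 (SD, n = 2), did not differ from that of Tdg, 26.1% ± 2.34, beyond their spread. Dnmt1 at 12.1% ± 1.80, Tet1 at 12.0% ± 1.36 and Dnmt3b at 10.4% ± 4.69 could not be ordered, and Tet2 lay below them at 4.15% ± 1.24.

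The islands over the members' principal starts were called in fibers and not in epithelium. None of the 8 starts was under an island in either epithelium library, against 6 and 4 in fiber replicates 1 and 2. Of all genes, 12.4% and 14.6% had the start covered in epithelium and 36.6% and 41.8% in fibers, so that a count of 0 of 8 in epithelium lies near the background. The 4 starts under an island in both fiber libraries and in no epithelium library were those of Dnmt1, Uhrf1, Tet2 and Tdg, and 15.8% of all genes had this pattern. No member start was under an island in all 4 libraries, and 6.17% of all genes had one. Dnmt3a and Tet1 had no island at the principal start in any library, as did 51.7% of all genes. Over all 46 coding starts of the 8 genes, 2 and 2 were covered in epithelium and 27 and 22 in fibers, whereas of 54327 coding starts of all genes 13.6% and 15.8% were covered in epithelium and 39.6% and 44.4% in fibers. These starts are not independent, as 13 of the 46 belong to Dnmt3a, of which 7 lay under islands in each fiber library. Islands anywhere in the window were called in both fiber libraries and no epithelium library for 3 genes (Dnmt1, Tet2 and Tdg), as for 15.2% of all genes. They were called in all 4 libraries for Dnmt3a, Tet1 and Tet3, as for 23.9% of all genes.

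Longer islands went with the wider cover, which is itself made up of island lengths. The longest island was longer in both fiber libraries than in both epithelium libraries for 7 of the 8 genes, all but Tet1, against 44.2% of all genes. For Uhrf1 the margin was small, 6200 bp in epithelium replicate 2 against 6400 bp in fiber replicate 1. The former island lies beyond the end of Uhrf1 and reaches into Kdm4b. The count was 7 with the gene body alone and 6 with 10 kb on each side. All 8 genes had an island, as had 14147 of the 21938 genes. A gene called longer in fibers must have an island, so that all 9693 genes so called lie among those 14147. For no member was the longest island longer in both epithelium libraries, against 0.506% of all genes. Across each library, median island lengths were 3800 and 3000 bp in epithelium and 5200 and 4000 bp in fibers. The fiber mean was 10.4 times the epithelium mean for Tet3 and 4.23 times for Dnmt3a.

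The density of reads inside islands differed little. Reads per kb can be compared for the 3 genes with islands in all 4 libraries. Dnmt3a had 27.7 and 27.9 reads per kb in epithelium and 29.3 and 28.5 in fibers, Tet1 had 22.7 and 27.1 against 29.1 and 27.2, and Tet3 had 27.8 and 30.6 against 30.7 and 30.8. All 3 were higher in both fiber libraries, by 1.04, 1.13 and 1.05 times, whereas 30.8% of the 5246 genes with islands in all 4 libraries were higher in fibers and 16.3% higher in epithelium. For Tet1 and Tet3 the gaps between the compartments, from 27.1 to 27.2 and from 30.6 to 30.7, were smaller than the spread of the epithelium libraries. Divided by the median reads per kb of each library's islands, all 3 genes were still higher in fibers. Divided by the reads in islands of each library, 0 of the 3 were. The fiber libraries held far more reads in islands, so that this division lowers their values and cannot show a direction here. An island must pass a threshold to be called, so that weak islands are not among those compared.

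Tet3 and Dnmt3a stayed higher in both fiber libraries, with smaller differences, when every library was cut to the same number of islands, 10389, that of the smallest library. With the islands of most reads per kb kept, Tet3 was covered by 22.1% and 18.2% in epithelium and 77.8% and 33.0% in fibers, and Dnmt3a by 12.3% and 12.7% against 27.2% and 30.1%, so that their differences fell to 35.2 and 16.1 points. Dnmt1 was the other gene higher in both fiber libraries, at 0% and 0% against 10.8% and 4.79%. The count was then 3 of 8 genes, where 15.6% of all genes were higher in fibers and 4.84% in epithelium. With the islands of most reads kept, Tet3 was at 22.1% and 12.4% against 88.3% and 78.9% and Dnmt3a at 12.3% and 19.4% against 33.1% and 50%, and these were the only 2 of the 8 genes higher in fibers, with 21.4% of all genes. Tet2 then had no island in any library, so that its difference rests on the islands of lower rank in the fiber libraries.

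**Figure D4:**
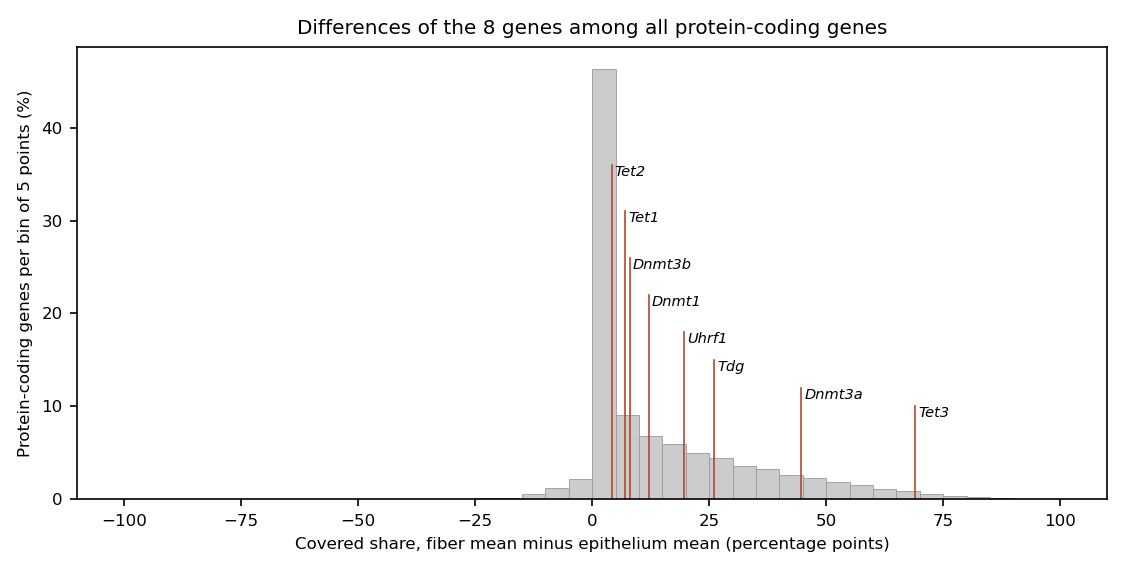
Share of all 21938 protein-coding genes (gray bars, percent per bin of 5 percentage points) by the difference in covered share, fiber mean minus epithelium mean, with lines at the 8 genes. Tet2 at 4.15 points lies in the largest bin, and Tet3 at 69 points lies in the far right tail.

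Counted in bases, epithelium islands in the 8 windows lay mostly where fibers had islands too. Tet3 and Dnmt3a supplied most bases under epithelium islands, 23600 and 14600 bp in epithelium replicate 1 and 19428 and 25000 bp in replicate 2. Bases under an epithelium island and no fiber island were 0 at Tet3, 2800 at Dnmt3a, 2000 at Uhrf1, 2200 at Dnmt3b and 4400 at Tet1. Of the 46000 bp under islands in epithelium replicate 1, 76.1% and 84.3% were under islands of fiber replicates 1 and 2, whereas 42.6% was under islands of epithelium replicate 2. Of the 58714 bp in epithelium replicate 2, 69.3% and 83% were under islands of the fiber replicates and 33.4% under those of epithelium replicate 1. Over the whole genome the shares under fiber islands were 69% and 67.7% for epithelium replicate 1 and 68.2% and 67.8% for replicate 2. The fiber libraries shared more with each other, at 84.0% of the bases of replicate 1 and 78.0% of those of replicate 2. In the whole genome these 2 values were 68.1% and 64.5%, and epithelium replicate 1 shared 38.8% of its bases with replicate 2. The fiber libraries cover more bases, so that unequal sizes enter these shares.

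Other genes of the pathway were measured in the same way, 59 genes in 7 lists, of which 38 had a higher covered share in both fiber libraries, 0 in both epithelium libraries, 12 overlapped and 9 had no island. Their median difference was 15.7 points. The counts of these lists stand beside the 45.0% of all genes, and the 69.8% of genes with an island, that were higher in fibers. The list of histone methylation enzymes linked to DNA methylation was higher in fibers for 10 of 10 genes. Nsd1, which places the H3K36 mark that Dnmt3a reads, was at 15.7% and 9.79% in epithelium and 52.6% and 55.9% in fibers, and its relative Nsd2 at 5.27% and 6.19% against 41.9% and 50.9%. Among readers of CpG dinucleotides 10 of 14 were higher, with the largest differences for Cxxc1 (0% and 0% against 76.8% and 46.8%) and Mbd2 (0% and 0% against 52.4% and 59.2%). Zbtb33, a reader on the X chromosome, and X-linked Ogt, a partner of the Tet enzymes, had no island. On that chromosome 0.211% and 0.316% of genes had an island in epithelium and 1.69% and 5.17% in fibers, against 31.7% to 63.2% of genes elsewhere, so that no value is read from X-linked genes.

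In base excision repair, which follows Tdg, 5 of 10 genes were higher in fibers. The AP endonuclease gene Apex1 was at 0% and 0% in epithelium against 100% and 76.7% in fibers, and Neil2 at 0% and 0% against 15.9% and 26.2%. Among partners that maintain methylation 4 of 7 were higher, with Usp7, a deubiquitinase, at 11.2% and 2.31% against 46.0% and 44.5% and Pcna, the replication clamp, at 0% and 0% against 18.4% and 28.3%. For cofactor supply and partners of the Tet enzymes the count was 4 of 7. Idh1 and Idh2, which make the 2-oxoglutarate that Tet enzymes use, were at 0% and 0% against 57.5% and 62.8% and at 47.6% and 27.5% against 100% and 78.4%. Of the methyl donor genes 4 of 8 were higher, among them Mat2a, which makes S-adenosylmethionine, at 72.8% and 51.3% against 83.5% and 78.8%. Of the other methyltransferase-family genes only Trdmt1 had an island, and Dnmt3l and Dnmt3c had none in any library.

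**Figure D5:**
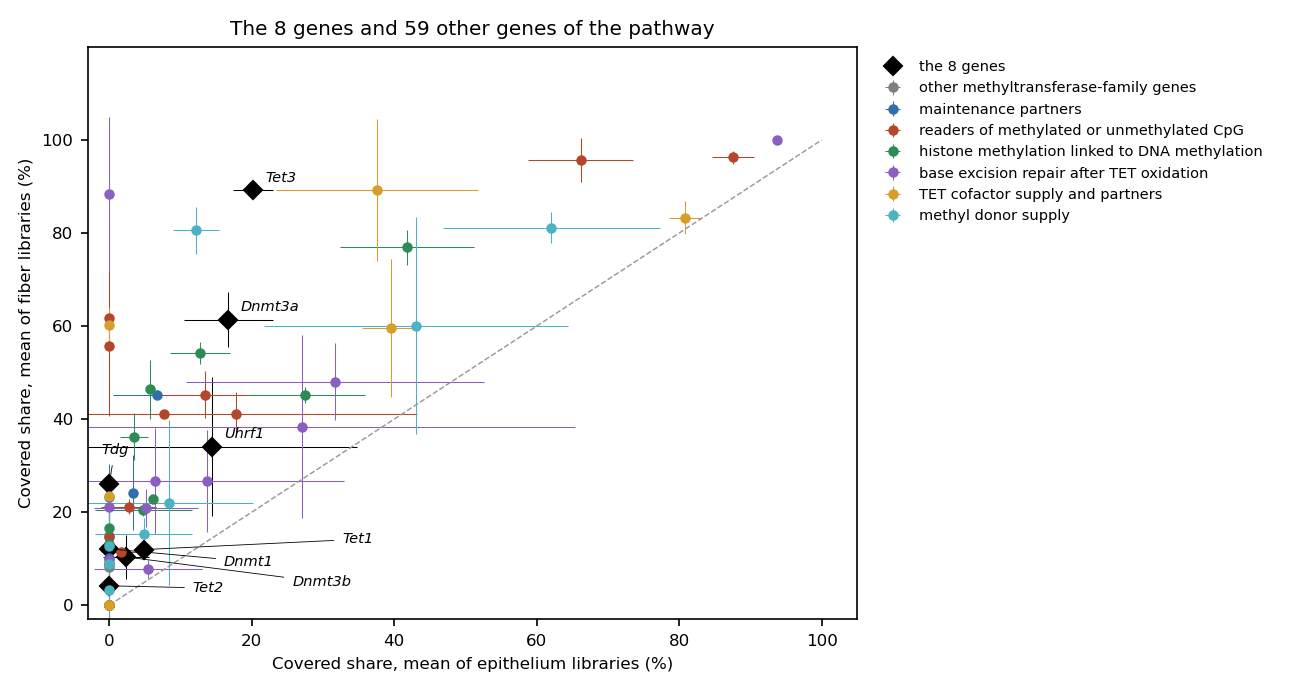
Covered share (percent of the window) in epithelium (horizontal) and fibers (vertical) for the 8 genes (black diamonds) and 59 other genes of the pathway in 7 lists (colored points), as the mean of 2 libraries with SD bars. The dashed line marks equal cover, and of the 59 genes none lies below it.

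The pathway gene most like each of 7 members over the 4 libraries was found by the Euclidean distance in covered share, in percentage points. Dnmt1 was nearest to Ezh2, at a distance of 1.66, with 12.3% and 14.2% in fibers and none in epithelium. Tdg was nearest to Gadd45a (3.94), Dnmt3b to Eed (5.29), Tet1 to Qser1 (5.68) and Tet2 to Mtr (6). Uhrf1 lay 11.3 from Smug1, whose compartments also overlapped. Dnmt3a was nearest to Nsd1, at the greatest distance of these 7, 15.9.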

How the data were processed

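Measured was the H3.3 ChIP-seq signal of 4 libraries. Reads (75 nt, single-end) had been aligned by the authors to mm10 with BWA (aln and samse, default settings), and islands had been called library by library with SICER2 (window 200 bp, gap 600 bp, false discovery rate 0.01). Tool versions, duplicate removal and whether the input entered the calling are not given in the sources used here. The deposited lists hold the start and end of each island and an unnormalized whole-number count of its reads. Islands of separate libraries were not pooled. The windows of 21938 protein-coding genes (GENCODE vM21, 5 kb on each side) were measured with Python 3.11.15, numpy 2.4.6 and pandas 2.3.3. The principal start is that of the APPRIS principal transcript. Covered bases were checked against bedtools 2.31.1 (87752 gene and library pairs, largest difference 0 bp). A gene was called higher where both libraries of one compartment exceeded both of the other, with exact permutation tests over libraries. Counts of reads in whole islands were divided by island length, and intervals were not computed because depth is unknown.

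All 8 genes are named. Of each other list, the genes with the 2 largest differences among those not overlapping are named, with the nearest pathway gene of each member, neighbours in a window and X-linked genes, apart from a few genes that are not reported here. The members and lists were chosen with earlier results of these data known. Same-numbered libraries share only a number, as the labels give no pairing. Their deviations from compartment means correlated at 0.006 over 21938 genes.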

Additional observations from a re-analysis of the deposited data

How the results depend on the processing

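With equal numbers of islands in each library, ranked by reads per kb or by read count, the number of members with a higher covered share in fibers was 3 or 2 in place of 7, the number with a longer island in fibers was 3 under both, and that of the other pathway genes with a higher covered share was 17 or 22 in place of 38. The median difference over the members, 15.9 points, was 7.69 or 4.43 under these settings and 9.87 with islands of at least the median reads per kb, and it ranged from 11.1 to 19.1 when 1 library was left out. More reads per kb in fibers were found for 0 of 2 genes with islands of at least the median reads per kb, 1 of 3 with islands within 1 kb merged and 1 of 3 by the median of islands. The count was 3 of 3 after division by the median reads per kb of each library. It was 0 of 3 after division by the reads in islands, which are far more in the fiber libraries. With any annotated coding start in place of the principal one, 1 member, Tet3, had an island over a start in all 4 libraries. The difference of Dnmt3b turned to -2.28 points with islands of at least the median reads per kb and to -2.28 with equal numbers by reads per kb, and that of Tet1 to -1.84 and -0.699 with equal numbers by reads per kb and by read count. Fewer islands enter these settings by construction, and the cause beyond that was not tested. Of 96 differences of single members under the alternatives, 89 were positive. They are all variants of the same 8 comparisons, so that they are not 96 separate tests. The values that were not positive all came from settings that keep fewer islands. Cutting windows at other protein-coding genes, an alternative chosen after seeing the data, gave 8 members higher in fibers, as did the gene body alone. With the replicate block, that is fibers above epithelium within both same-numbered pairs, the counts were 8 for covered share, 8 for the longest island, 3 for reads per kb and 41 for the pathway genes, each within 1.5 times the count without it. Only 2 libraries a compartment and unknown depth limit the precision, and no p can fall below 0.33.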

Other observations

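Several transcripts that lie within or beside the 8 genes were covered by islands already counted for those genes. They were named because they overlap a window. Dnmt3aos, an antisense transcript inside Dnmt3a, was covered by 0% and 0% in epithelium and by 100% and 100% in fibers, and Dnmt3bos, antisense at the start of Dnmt3b, by 0% and 0% against 100% and 17.9%. Gm42567, antisense at the start of Tet2, was covered by 0% and 0% in epithelium and 6.27% and 2.76% in fibers, and its start lay under the islands of both fiber libraries. B230319C09Rik, a transcript on the strand opposite to Tet3 that begins beside the internal Tet3 start, was covered by 55.5% and 46.4% in epithelium and by 100% and 100% in fibers, and its own start was under an island in all 4 libraries. ChIP reads carry no strand of transcription, so that islands of these pairs cannot be assigned to either partner.

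Of the protein-coding neighbours, S1pr2 beside Dnmt1 was covered by 33.2% in epithelium replicate 1 alone among the epithelium libraries, with 0% in epithelium replicate 2, 0% in fiber replicate 1 and 2.64% in fiber replicate 2. Bola3 beside Tet3 was covered by 29.6% and 23.7% in epithelium and by 94.0% and 100% in fibers. Kdm4b beside Uhrf1 was covered by 45.1% and 55.2% against 78.5% and 74.9%. Arrdc5 and Glt8d2 had no island over their bodies in any library.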
